A study of Mus musculus with 9 samples.

Results

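Among the enzymes that break down histidine, histamine and tyrosine, the signal of 3 was lower in left ventricles labelled LRAT -/- than in wild-type ventricles on the same diet. Hal, histidine ammonia-lyase, showed the greatest difference of the set. The others were Hnmt, histamine N-methyltransferase, and Fah, fumarylacetoacetate hydrolase. The set holds 8 genes, Hal, Uroc1, Hdc, Hnmt, Hpd, Hgd, Gstz1 and Fah, out of 22033 genes measured. They were found as the probe sets to which the authors' deposited comparison table gives these symbols, and they were chosen by their differences between the LRAT -/- label and wild type. Differences of the 8 genes from wild type are therefore given as a description, without p-values. Counts of the 8 past limma's threshold in those comparisons are a description too, since the choice used the same differences. The comparison of the diets did not choose them and was tested, but it shares the LRAT -/- sufficient arrays with a comparison that did, so its values for the 8 genes are not independent of the choice.

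Histidine ammonia-lyase takes ammonia off histidine and leaves urocanate, which urocanase (Uroc1) and later enzymes turn into glutamate, with a carbon unit passed to folate. Histidine decarboxylase (Hdc) takes the other branch and makes histamine, which Hnmt inactivates by methylation inside cells. In the tyrosine pathway, Hpd makes homogentisate, Hgd opens its ring, Gstz1 isomerises the product and Fah splits it into fumarate and acetoacetate. Histidine and tyrosine breakdown are textbook liver pathways, Hal is also known from the skin, and Hdc is known from mast cells.

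RNA of the left ventricle of male mice was hybridised to 9 Affymetrix mouse gene arrays, 1 per sample, in 3 groups of 3. The groups were LRAT -/- mice on a vitamin A deficient diet, LRAT -/- mice on a vitamin A sufficient diet, and wild-type mice on the sufficient diet. Lrat encodes lecithin retinol acyltransferase, the enzyme that esterifies retinol for storage. The labels give the genotype as LRAT -/- and nothing further on the allele. Mice were killed after 50 days on the diets, which were the same but for retinol palmitate, 250000 U/kg in the sufficient diet. Wild-type mice on the deficient diet were not analysed here, so the effect of diet is seen only under the LRAT -/- label. The sources used here give neither strain nor age, and do not say whether the arrays of a group came from different animals. The p-values below therefore measure the spread between these samples, which may be technical.

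Signals are log2 values, and a difference of 1 on this scale is a doubling. Array medians lay between 6.38 and 6.43, and pairwise correlations between arrays over all genes between 0.9895 and 0.9971. Negative controls, 5222 probe sets, centred on 4.54 and had their 95th percentile at 7.53, and 8488 of the 22033 genes had a mean signal over that percentile. A gene whose group mean was under 7.53 is called dim here, and its level is a bound only. On the first principal component the arrays labelled LRAT -/- scored 0.489 to 14.96. Of the wild-type arrays, 1 and 2 scored -27.19 and -17.05 but array 3 scored 3.83, inside the LRAT -/- range. The differences of Hal, Hnmt, Fah and the mast cell genes from wild type are therefore given with and without wild-type array 3.

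The signal of Lrat went against the labels. It was 6.84, 6.78 and 6.96 on the arrays labelled LRAT -/- deficient, 7.29, 7.34 and 7.38 on those labelled LRAT -/- sufficient, and 5.81, 5.78 and 5.73 on the wild-type arrays. Both groups labelled LRAT -/- were higher than wild type, by 1.09 ± 0.07 on the deficient diet and by 1.57 ± 0.07 on the sufficient diet (log2 ± SE; limma with Benjamini-Hochberg adjustment over all genes, adjusted p = 0.000259 and 1.48e-05), and all group means were dim. The sources used here do not say whether the probes lie inside the deleted stretch. Groups are therefore named by their labels throughout, and every direction below rests on those labels.

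The stretches before the start sites of Hal, Hnmt and Fah are shown because these genes were low together under the LRAT -/- label. Each line gives the 250 bases before the start site from RefSeq on GRCm38.p6, 5′ to 3′ on the gene's strand, with any searched motif in capitals. The windows are chr10:93488518-93488767 on the plus strand for Hal, chr2:24049380-24049629 on the minus strand for Hnmt and chr7:84605943-84606192 on the minus strand for Fah.
Hal: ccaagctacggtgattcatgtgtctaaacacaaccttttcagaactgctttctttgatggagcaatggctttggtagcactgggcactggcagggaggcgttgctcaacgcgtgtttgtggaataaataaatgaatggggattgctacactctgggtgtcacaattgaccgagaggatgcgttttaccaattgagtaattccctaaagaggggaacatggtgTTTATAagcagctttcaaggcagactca
Hnmt: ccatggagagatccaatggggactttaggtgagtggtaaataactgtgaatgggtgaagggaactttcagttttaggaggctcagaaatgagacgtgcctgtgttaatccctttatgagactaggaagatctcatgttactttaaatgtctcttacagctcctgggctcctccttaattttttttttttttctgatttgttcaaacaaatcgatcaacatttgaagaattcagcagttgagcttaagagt
Fah: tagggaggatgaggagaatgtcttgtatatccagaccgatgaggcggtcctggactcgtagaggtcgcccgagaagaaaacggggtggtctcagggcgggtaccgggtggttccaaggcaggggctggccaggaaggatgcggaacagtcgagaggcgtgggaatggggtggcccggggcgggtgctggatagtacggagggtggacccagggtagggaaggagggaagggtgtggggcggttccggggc
The letters searched on both strands were AGGTCA and AGTTCA, repeat units of the elements that retinoic acid receptors and related receptors bind, and TATAAA, the TATA box. Hal held TATAAA on the opposite strand (capitals TTTATA, from base -28), and 12.4% of the 32851 promoters in the table hold that motif on either strand. Hnmt and Fah held none of the 3. Of the members that overlapped with wild type, Uroc1 held AGGTCA. Hdc held AGTTCA. Hgd held AGGTCA and TATAAA as well. AGGTCA occurs in 14.0% of all promoters and AGTTCA in 11.8%. GC content was 45.6% in the Hal window, 38.8% in the Hnmt window and 64.4% in the Fah window, against a median of 52.4% over all promoters. A match is a run of letters and no match says only that these letters are not in the window.

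Hal, the entry step of histidine breakdown, was bright in wild-type ventricles and dim in both groups labelled LRAT -/-. Its signal was 5.73, 6.01 and 5.88 on the arrays labelled LRAT -/- deficient, 5.91, 6.09 and 5.80 on those labelled LRAT -/- sufficient, and 9.77, 10.13 and 9.36 on the wild-type arrays. All 6 arrays labelled LRAT -/- lay more than 3 log2 units under the lowest wild-type array, so the groups did not overlap. Means were 5.87 ± 0.14 under LRAT -/- deficient, 5.93 ± 0.15 under LRAT -/- sufficient and 9.75 ± 0.39 in wild type (SD, n = 3 each). In bulk tissue, fewer cells that express a gene and less of its RNA per cell cannot be told apart. The fitted log2 difference from wild type was -3.88 ± 0.17 (SE) on the deficient diet and -3.82 ± 0.17 on the sufficient diet. Because both LRAT -/- means were dim, the fold is a bound: Hal was at least 4.68-fold lower than in wild type under either diet, taking the dim groups at 7.53. Wild-type array 3 had the lowest wild-type value, and without it the differences were -4.08 on the deficient and -4.02 on the sufficient diet. The authors' deposited table gives ratios to wild type of 0.0736 for the deficient and 0.0744 for the sufficient LRAT -/- group.

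Uroc1, the next enzyme of the pathway, was dim in all groups. It lay between 6.07 and 6.24 on the arrays labelled LRAT -/- deficient, between 5.94 and 6.12 on those labelled LRAT -/- sufficient and between 6.12 and 6.24 on the wild-type arrays. The ranges met or overlapped in each comparison. The 2 further enzymes of this route were dim as well. Amdhd1, imidazolonepropionase, differed from wild type by -0.12 ± 0.07 on the deficient diet and by -0.11 ± 0.07 on the sufficient diet (adjusted p = 0.654 and 0.792). Ftcd, which hands the carbon unit to folate, was 6.45, 6.56 and 6.61 on the arrays labelled LRAT -/- deficient, 6.39, 6.37 and 6.44 on those labelled LRAT -/- sufficient and 6.39, 6.33 and 6.21 on the wild-type arrays. The deficient arrays were the highest, without overlap, yet the difference from wild type of 0.23 ± 0.07 did not pass (adjusted p = 0.427). In these ventricles Hal was the sole enzyme of the 4-step route with a group mean over 7.53, and that in wild type only.

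In the histamine branch, Hnmt was over the control percentile in wild type and dim under the LRAT -/- label. Its signal was 6.33, 6.57 and 6.85 on the arrays labelled LRAT -/- deficient, 6.58, 6.57 and 6.51 on those labelled LRAT -/- sufficient, and 7.84, 7.79 and 8.07 on the wild-type arrays. The wild-type arrays were all higher than every array labelled LRAT -/-. The difference from wild type was -1.31 ± 0.13 on the deficient diet and -1.35 ± 0.13 on the sufficient diet (log2 ± SE). With the dim groups at 7.53, Hnmt was at least 1.29-fold lower than in wild type under either diet. Here wild-type array 3 was the highest of its group, and without it the difference was -1.23 on the deficient and -1.26 on the sufficient diet. The authors' deposited table gives ratios of 0.403 for the deficient and 0.412 for the sufficient LRAT -/- group to wild type.

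Hdc, which makes histamine, was dim in all groups and overlapped between them. It read 7.22, 7.13 and 6.80 on the arrays labelled LRAT -/- deficient, 7.07, 7.07 and 6.65 on those labelled LRAT -/- sufficient, and 7.34, 7.07 and 7.07 on the wild-type arrays. Its difference from wild type was -0.11 ± 0.15 on the deficient and -0.23 ± 0.15 on the sufficient diet (log2 ± SE). Leaving out each array in turn gave -0.20 to 0.015 on the deficient diet, above 0 without LRAT -/- deficient array 3, and -0.30 to -0.092 on the sufficient diet. Wild-type arrays 2 and 3 and LRAT -/- sufficient array 1 share the value 7.0705. Such shared values occur in other genes here, bright ones such as Cndp2 (8.7371) among them. The low signal of Hnmt under the LRAT -/- label thus stood beside overlapping but dim signals of Hdc. Dim signals give a bound only, so they do not show that the level of Hdc was the same.

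Mast cell markers, read because these cells make and store histamine, set wild-type array 3 apart from the other wild-type arrays. The mean signal of the 12 measured mast cell genes was 7.22 to 7.37 on the arrays labelled LRAT -/- deficient and 7.02 to 7.14 on those labelled LRAT -/- sufficient. On the wild-type arrays it was 6.53, 6.74 and, on array 3, 7.42. Of the 12, 7 were dim in every group, and 8 had an unadjusted p under 0.05 between deficient LRAT -/- and wild type, where 9 of 12 were higher and 8.98% of all genes reached that p. Cpa3 and Mcpt4, proteases of mast cell granules, differed between deficient LRAT -/- and wild type by 0.97 ± 0.36 and 1.21 ± 0.41 (adjusted p = 0.484 and 0.442). Tpsb2, a tryptase, was at 173.0% of wild type on the deficient diet (adjusted p = 0.28). Its close relative Tpsab1 went the other way. Tpsab1 was at 50.0% of wild type on the deficient (adjusted p = 0.246) and at 48.3% on the sufficient diet (adjusted p = 0.277). It was dim in all groups, and probes of near-identical genes may share signal. No gene of the list passed in any comparison with all 9 arrays. Leaving out wild-type array 3 is an alternative chosen after seeing the data. Without it, 7 of the 12 passed between deficient LRAT -/- and wild type, where 10 were higher, and 267 of all 22033 genes passed. Between sufficient LRAT -/- and wild type 4 passed, and 98 of all genes. Tpsab1 was among those that passed in each, on the lower side, at -0.65 ± 0.08 on the deficient and -0.70 ± 0.08 on the sufficient diet (adjusted p = 0.0157 and 0.0144). Cpa3 and Mcpt4 then differed between deficient LRAT -/- and wild type by 1.45 ± 0.23 and 1.78 ± 0.18 (adjusted p = 0.0305 and 0.0074). Leaving out wild-type array 1 instead, 0 of the 12 passed between deficient LRAT -/- and wild type. At an unadjusted p under 0.05 (limma) there were 4, where 7.02% of all genes reached it. Cpa3 and Mcpt4 were then at 0.55 ± 0.28 and 0.76 ± 0.33 on the deficient diet. On the sufficient diet they were at 0.27 ± 0.28 and 0.17 ± 0.33. The part of mast cells in the values of Hdc and Hnmt was not tested.

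The other genes that clear or sense histamine did not pass in any comparison. Of the 6 measured genes for histamine breakdown and transport, 5 were dim, among them Maoa, which oxidises amines, and Aoc1, the diamine oxidase that degrades histamine outside cells. Maob, which oxidises methylhistamine, was the bright gene of this list. It averaged 9.66 ± 0.18 under LRAT -/- deficient, 9.90 ± 0.14 under LRAT -/- sufficient and 9.64 ± 0.25 in wild type (SD, n = 3 each), and the groups overlapped. Slc22a3, a transporter that takes up histamine, was 6.92, 6.93 and 6.74 on the arrays labelled LRAT -/- deficient, 7.17, 7.09 and 7.23 on those labelled LRAT -/- sufficient, and 7.89, 7.19 and 7.14 on the wild-type arrays. The deficient arrays were below all others, and the difference from wild type was -0.54 ± 0.18 (adjusted p = 0.426), or -0.30 ± 0.08 without wild-type array 1 (adjusted p = 0.494), the one array of the gene over 7.53. The 4 histamine receptor genes Hrh1 to Hrh4 were all dim and differed from wild type by between -0.11 and 0.09 under either diet.

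In the tyrosine pathway, Fah was bright in all groups and lower under the LRAT -/- label. Its signal was 9.19, 9.43 and 9.01 on the arrays labelled LRAT -/- deficient, 8.96, 8.84 and 8.51 on those labelled LRAT -/- sufficient, and 9.99, 9.98 and 9.63 on the wild-type arrays. The 3 groups were ranked without overlap, with the sufficient LRAT -/- arrays lowest and the wild-type arrays highest. Means were 9.21 ± 0.21 under LRAT -/- deficient, 8.77 ± 0.23 under LRAT -/- sufficient and 9.87 ± 0.20 in wild type (SD, n = 3 each). The difference from wild type was -0.66 ± 0.15 on the deficient diet and -1.10 ± 0.15 on the sufficient diet, or 63.4% of the wild-type signal on the deficient and 46.7% on the sufficient diet. Wild-type array 3 was again the lowest of its group, and without it these differences were -0.78 on the deficient and -1.22 on the sufficient diet. The authors' deposited table gives ratios to wild type of 0.661 for the deficient and 0.516 for the sufficient LRAT -/- group.

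Gstz1, the isomerase that acts just before Fah, was bright in all groups, with a smaller difference. It was 8.54, 8.66 and 8.45 on the arrays labelled LRAT -/- deficient, 8.89, 8.58 and 8.35 on those labelled LRAT -/- sufficient, and 8.77, 8.94 and 8.96 on the wild-type arrays. The deficient arrays lay just under the wild-type arrays, while the sufficient LRAT -/- arrays overlapped with both. The difference from wild type was -0.34 ± 0.13 on the deficient and -0.29 ± 0.13 on the sufficient diet (log2 ± SE). On the sufficient diet it moved with single arrays, from -0.42 without LRAT -/- sufficient array 1 to -0.16 without array 3 of that group.

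Hpd and Hgd, the upstream enzymes, were dim on all 9 arrays. Hgd lay between 5.41 and 5.42 on the arrays labelled LRAT -/- deficient, between 5.41 and 5.50 on those labelled LRAT -/- sufficient and between 5.26 and 5.41 on the wild-type arrays. Hpd lay between 5.78 and 5.82 on the arrays labelled LRAT -/- deficient, between 5.73 and 5.90 on those labelled LRAT -/- sufficient and between 5.39 and 5.81 on the wild-type arrays. Hpd was read from probe set 10533612, which both tables that name probe sets call Hpd. The brightest probe set that the comparison table calls Hpd, 10533626, is named Rpl35a, a ribosomal protein gene, by the other table. It read 13.11, 13.13 and 13.35 on the arrays labelled LRAT -/- deficient, 13.05, 13.03 and 13.25 on those labelled LRAT -/- sufficient and 12.90, 13.11 and 13.13 on the wild-type arrays, and it was not used as Hpd.

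**Figure D1:**
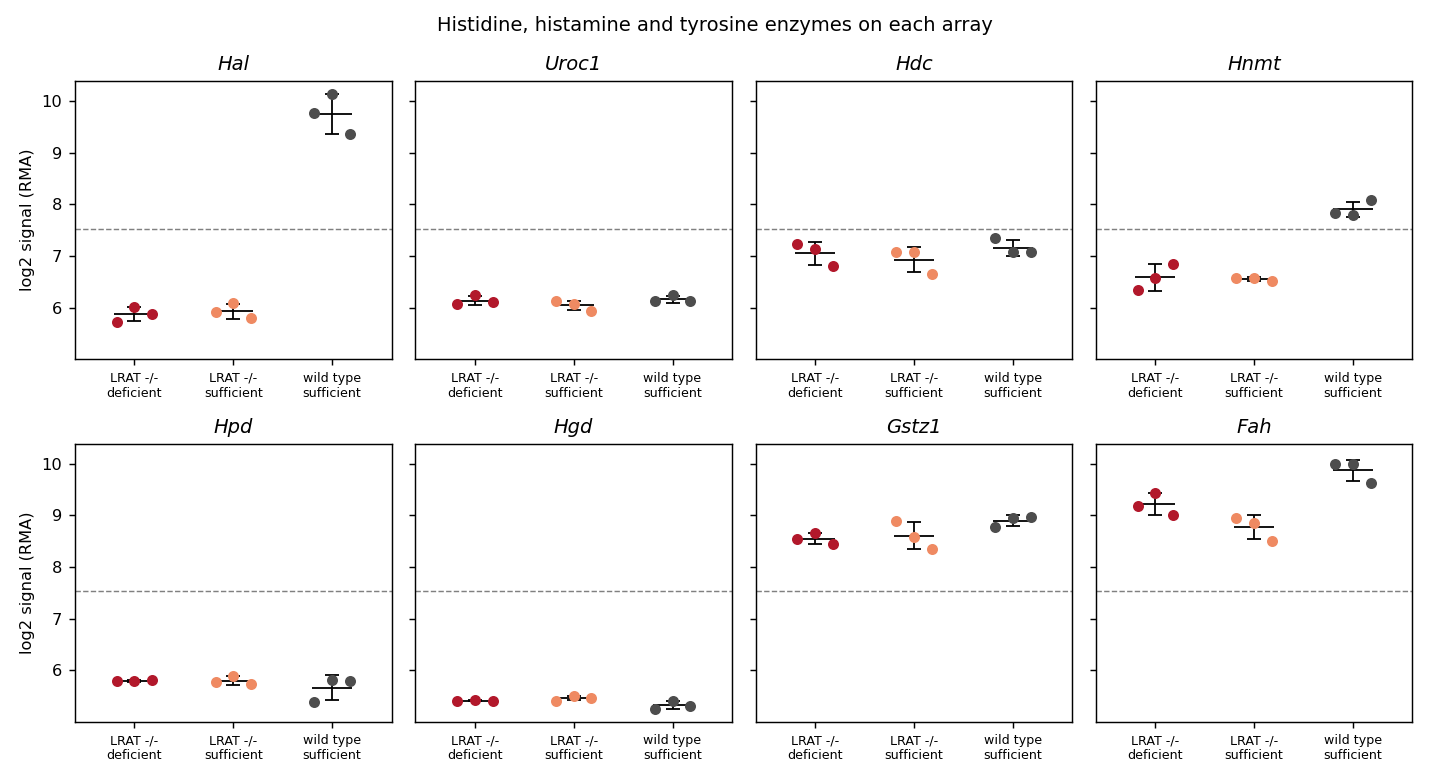
Log2 signal (vertical axis) of the 8 genes on the 9 arrays (points, arrays 1 to 3 from left to right in each group), with group mean and SD (bars, n = 3) and the 95th percentile of negative controls at 7.53 (dashed line). Hal and Hnmt lie over the line in wild type only, Fah and Gstz1 in all groups, and the other 4 genes under it in all groups.

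Set side by side, 3 of the 8 genes, Hal, Hnmt and Fah, passed limma's threshold on the lower side between sufficient LRAT -/- and wild type, where 0.0953% of all genes did. The same 3 did not overlap with wild type on the lower side, as did 4.29% of all genes. Between deficient LRAT -/- and wild type, 2 of the 8, Hal and Hnmt, passed on the lower side, against 0.0726% of all genes, and 4, with Fah and Gstz1, did not overlap, against 6.55%. The choice of the set used these differences, so shares above those of all genes can come from the choice alone. The counts describe the set and test nothing. The median difference over the 8 genes was -0.23 on the deficient diet and -0.26 on the sufficient diet, against -0.0038 on the deficient and -0.0021 on the sufficient diet over all genes. Both comparisons use the same 3 wild-type arrays.

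The diet comparison within the LRAT -/- label called none of the 8 genes, and 0.0% of all genes passed it. The lowest adjusted p over all 22033 genes was 0.494 (limma with Benjamini-Hochberg adjustment). Lrat had that value, at -0.48 ± 0.07 on the deficient against the sufficient diet (unadjusted p = 5.6e-05), without overlap but dim in both groups. An unadjusted p under 0.05 was reached by 943 genes, 4.28%. Of the 8, that was Fah alone, at 1.36-fold the signal of the sufficient group, whose low values against wild type had helped to choose it. The log2 difference of Fah was 0.44 ± 0.15 (SE), with a 95% confidence interval of 0.10 to 0.78 and an adjusted p of 0.969. Its deficient arrays were higher in 3 of 3, as the groups did not overlap, which 4.37% of all genes shared in that direction. Leaving out each array in turn gave 0.31 to 0.54.

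For the other bright gene, Gstz1, the diet difference was -0.06 ± 0.13, with an interval of -0.34 to 0.23 (adjusted p = 0.98). Hal differed between deficient and sufficient diet by -0.06 ± 0.17, with an interval of -0.45 to 0.33 (adjusted p = 0.987). Hnmt differed by 0.03 ± 0.13, with an interval of -0.25 to 0.32 (adjusted p = 0.99). Both genes were dim in the 2 groups compared, so these intervals bound signal and not RNA. Hdc was at 0.12 ± 0.15, Uroc1 at 0.09 ± 0.08, Hgd at -0.05 ± 0.07 and Hpd at -0.0045 ± 0.11 (adjusted p between 0.969 and 0.998). A p that misses the threshold does not show that the diets gave the same level.

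The rest of the phenylalanine and tyrosine pathway held 10 further measured genes, of which 5 were dim in all groups, and none passed in any comparison. The dim ones included Tat, the transaminase that starts tyrosine breakdown. Got1, an aspartate transaminase that can also act on tyrosine, was bright, at 12.51 ± 0.12 under LRAT -/- deficient, 12.60 ± 0.11 under LRAT -/- sufficient and 12.70 ± 0.09 in wild type (SD, n = 3 each). Pcbd1, which takes part in recycling tetrahydrobiopterin, came closest to the threshold. It was 7.54, 7.54 and 7.52 on the arrays labelled LRAT -/- deficient, 7.50, 6.97 and 7.31 on those labelled LRAT -/- sufficient, and 7.93, 8.08 and 8.03 on the wild-type arrays. The 3 groups did not overlap, with the sufficient LRAT -/- arrays lowest, but that group's mean, 7.26, was dim. The fitted difference from wild type was -0.48 ± 0.12 on the deficient diet (adjusted p = 0.264) and -0.75 ± 0.12 on the sufficient diet (adjusted p = 0.0661). Without LRAT -/- sufficient array 1 the comparison on the sufficient diet gave -0.87 (adjusted p = 0.0375). The diet difference was 0.27 ± 0.12 (unadjusted p = 0.0476, adjusted p = 0.969). Pcbd2, its paralog, overlapped between all groups, at 9.41 ± 0.08 under LRAT -/- deficient, 9.25 ± 0.10 under LRAT -/- sufficient and 9.20 ± 0.21 in wild type.

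A list set beside Fah, of genes that share its domain and others such as Mif and Oxct1 that do not, gave no call either. Of the 6 measured, Mif, a cytokine with tautomerase activity, had the lowest diet p. It was 11.28, 11.50 and 11.05 on the arrays labelled LRAT -/- deficient, 10.99, 10.92 and 10.64 on those labelled LRAT -/- sufficient, and 10.83, 11.02 and 11.42 on the wild-type arrays. The deficient arrays were higher than the sufficient LRAT -/- arrays, by 0.43 ± 0.17 (unadjusted p = 0.0296, adjusted p = 0.969), and both overlapped with wild type. Fahd2a, which carries the fumarylacetoacetate hydrolase domain, differed by 0.23 ± 0.11 between the diets (adjusted p = 0.969). Oxct1, which activates acetoacetate, the ketone body that Fah releases, was at -0.22 ± 0.08 between deficient LRAT -/- and wild type (adjusted p = 0.466).

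Over all lists, 105 of 109 other genes of these and nearby pathways were measured, and 0 passed in any of the 3 comparisons, where 0.132% of all genes passed between deficient LRAT -/- and wild type and 0.132% between sufficient LRAT -/- and wild type. At an unadjusted p under 0.05 there were 13 between deficient LRAT -/- and wild type, where 8.98% of all genes reached it, and 10 between sufficient LRAT -/- and wild type, where 6.79% did. Between the diets there were 2. Of the 105, 57 were dim in all groups. Their median differences were -0.01, -0.02 and 0.0032 in the same order of comparisons. The 13 genes of folate one-carbon metabolism, which receive the carbon unit of histidine, had medians of -0.03, -0.03 and 0.01. Among the 12 measured genes for histidine transport, carnosine and histidine methylation, Carns1, the carnosine synthase of muscle, was at 7.96 ± 0.12 under LRAT -/- deficient, 8.21 ± 0.20 under LRAT -/- sufficient and 8.03 ± 0.15 in wild type. Mettl9, which methylates histidines of proteins, was higher on all arrays labelled LRAT -/- than in wild type, by 0.43 ± 0.07 on the deficient diet (adjusted p = 0.117) and 0.33 ± 0.07 on the sufficient diet (adjusted p = 0.284), and did not pass. Without wild-type array 3, 2 of the 105 genes passed between deficient LRAT -/- and wild type, where 267 of all 22033 genes did. They were Mettl9 at 0.48 ± 0.08 (adjusted p = 0.0333) and Fahd1, a relative of Fah, at 0.55 ± 0.09 (adjusted p = 0.0347).

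**Figure D2:**
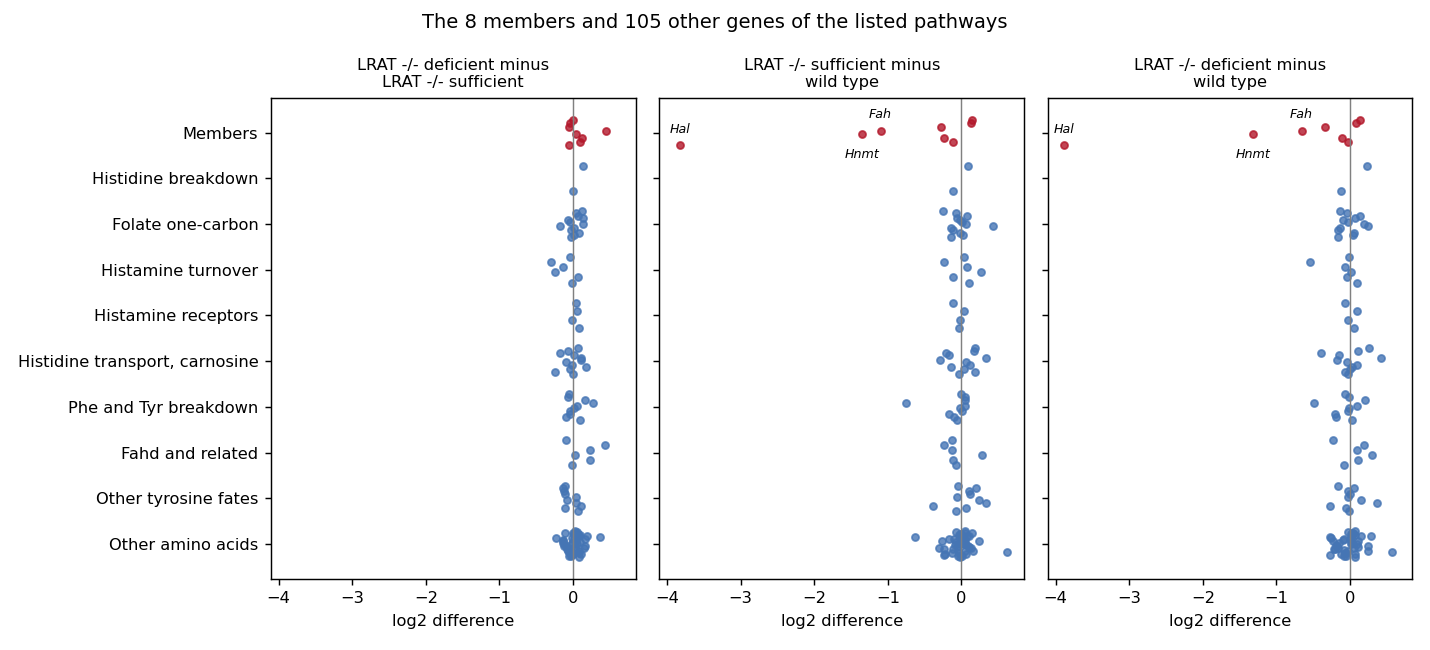
Log2 difference (horizontal axis) of the 8 genes (red) and of 105 other genes in 9 lists (blue), each point a gene, for the diet comparison and both comparisons with wild type. Hal, Hnmt and Fah lie outside the spread of the blue points on the sufficient diet, where those run from -0.75 to 0.62. The 8 genes were chosen by their differences from wild type, so this can come from the choice alone. The vertical position within a row carries no value.

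The genes next to the members on the chromosome gave no call. Of the 32 genes that are the 2 nearest measured on each side, 0 passed in any comparison (limma), and at an unadjusted p under 0.05 there were 2 between deficient LRAT -/- and wild type, where 8.98% of all genes reached it, and 0 in each of the other comparisons. Their differences ran from -0.54 to 0.34 between deficient LRAT -/- and wild type and from -0.27 to 0.26 between sufficient LRAT -/- and wild type. The 2 genes with an unadjusted p under 0.05 were Fstl1 and Pomt2. Fstl1, beside Hgd, was at -0.54 ± 0.19, or 68.9% of wild type, with overlap (adjusted p = 0.45). Pomt2, beside Gstz1, was at -0.18 ± 0.07 without overlap (adjusted p = 0.514). Hal lies between Lta4h, which makes leukotriene B4, and Amdhd1, the enzyme of its own pathway. Lta4h was bright, at 8.29 ± 0.16 under LRAT -/- deficient, 8.14 ± 0.17 under LRAT -/- sufficient and 8.17 ± 0.31 in wild type. Beside Hnmt, Spopl, an adaptor of a ubiquitin ligase, was at 8.81 ± 0.13 under LRAT -/- deficient, 8.73 ± 0.02 under LRAT -/- sufficient and 8.47 ± 0.38 in wild type. Beside Fah, Zfand6, a zinc finger protein, was at 9.36 ± 0.05 under LRAT -/- deficient, 9.32 ± 0.23 under LRAT -/- sufficient and 9.38 ± 0.08 in wild type.

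**Figure D3:**
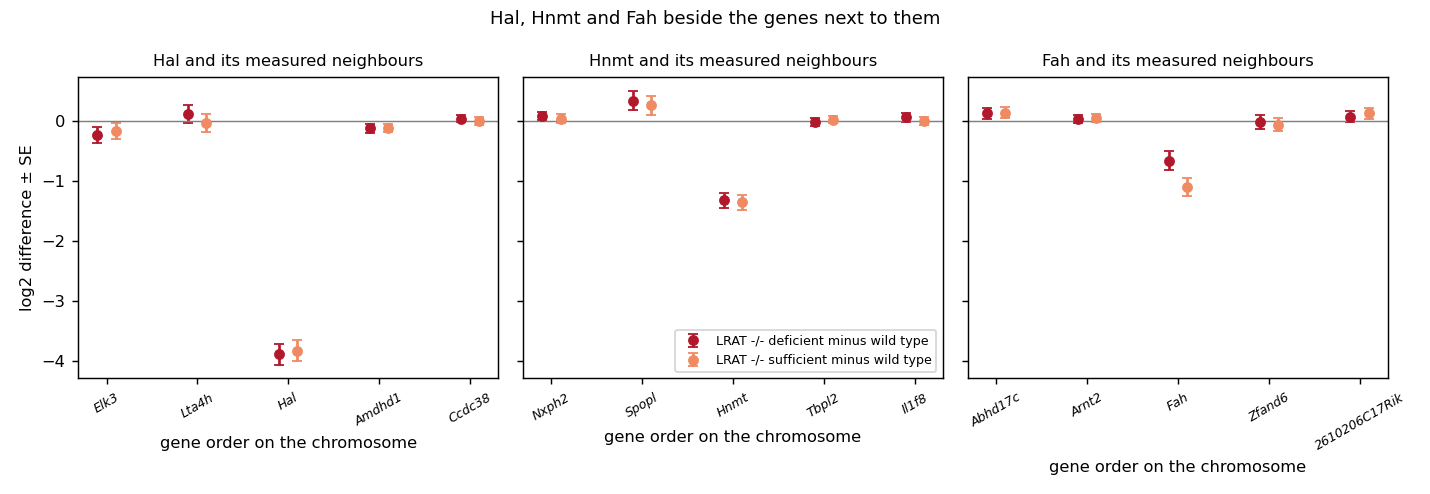
Log2 difference from wild type with SE (vertical axis) for Hal, Hnmt and Fah and the 2 nearest measured genes on each side, in gene order (horizontal axis), for LRAT -/- on the deficient diet (dark) and on the sufficient diet (light). The neighbours lie between -0.23 and 0.34 and the members between -3.88 and -0.66.

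The genes most like the members across the 9 arrays are given by Pearson's r as a description, since all points share the arrays and the group differences. For Hal they were Gdpd3, a lysophospholipase D (r = 0.989), Elovl7, a fatty acid elongase (0.981), Plekha7, of cell junctions (0.980), Zfp945 (0.978) and the predicted gene Gm14267 (0.971). For Hnmt they were again Gdpd3 (0.984), then Adora2b, an adenosine receptor (0.964), Colec11, a collectin (0.956), Klhl7 (0.954) and Mboat2, a lysophospholipid acyltransferase (0.953). Gdpd3 averaged 6.13 under LRAT -/- deficient, 6.32 under LRAT -/- sufficient and 12.11 in wild type. For Fah they were Itm2b, a membrane protein (0.983), Tmem255b (0.961), Cryzl2 (0.959), Actn2, the alpha-actinin of the Z-disc (0.958) and Scgb1c1, a secretoglobin (0.945). A high r does not give the size of a difference. Adora2b, dim in all groups, differed from wild type by -0.11 on the deficient and -0.12 on the sufficient diet. For Itm2b these differences were -0.08 and -0.15. Between the members, r was 0.962 for Hal with Hnmt, 0.870 for Hal with Fah and 0.807 for Hnmt with Fah.

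Markers of other tissues were checked because Hal is known from liver and skin. The 13 genes of ventricular myocytes were bright on all arrays, with means of 12.80 to 12.85 on the arrays labelled LRAT -/- deficient, 12.85 to 12.90 on those labelled LRAT -/- sufficient and 12.93 to 12.97 on the wild-type arrays. The groups did not overlap, with the deficient arrays lowest. Of the 13, 0 were higher than in wild type on the deficient and 3 on the sufficient diet. An unadjusted p under 0.05 was reached by 3 on each diet, against 8.98% of all genes on the deficient and 6.79% on the sufficient diet. All 10 keratinocyte genes were dim, with means of 5.52 to 5.60 under LRAT -/- deficient, 5.52 to 5.63 under LRAT -/- sufficient and 5.53 to 5.55 in wild type. Of the 13 measured hepatocyte genes 11 were dim, Alb among them, at 5.34 ± 0.91 under LRAT -/- deficient, 4.84 ± 0.08 under LRAT -/- sufficient and 4.65 ± 0.07 in wild type. The bright ones were Trf, the iron carrier transferrin, and Ahsg, a plasma glycoprotein, both lower in mean under the LRAT -/- label. Trf was at 9.67 ± 0.17 under LRAT -/- deficient, 9.58 ± 0.27 under LRAT -/- sufficient and 9.99 ± 0.05 in wild type, without overlap with wild type (adjusted p = 0.541 on the deficient and 0.595 on the sufficient diet). Ahsg was at 7.88 ± 0.32 under LRAT -/- deficient, 7.80 ± 0.24 under LRAT -/- sufficient and 8.35 ± 1.03 in wild type (adjusted p = 0.768 and 0.831), and without wild-type array 2 its differences from wild type were 0.11 on the deficient and 0.040 on the sufficient diet. The hepatocyte means were 5.995 to 6.25 under LRAT -/- deficient, 5.89 to 6.06 under LRAT -/- sufficient and 5.98 to 6.23 in wild type, and the groups overlapped. The 7 measured red cell genes had means of 10.33 to 11.30 under LRAT -/- deficient, 10.17 to 10.44 under LRAT -/- sufficient and 9.35 to 9.97 in wild type, so that the wild-type arrays were below all others. All 7 were higher in mean than in wild type under both diets. On the deficient diet 5 had an unadjusted p under 0.05 (limma), against 8.98% of all genes. On the sufficient diet 3 did, against 6.79%. The 8 endothelial genes had means of 9.64 to 9.82 under LRAT -/- deficient, 9.73 to 10.01 under LRAT -/- sufficient and 9.78 to 10.31 in wild type, with overlap. All 8 were lower in mean than in wild type under both diets, 5 at an unadjusted p under 0.05 on the deficient diet, where 8.98% of all genes reached it, and 1 on the sufficient diet. The 9 fibroblast genes had means of 9.40 to 9.59 under LRAT -/- deficient, 9.47 to 9.66 under LRAT -/- sufficient and 9.65 to 9.81 in wild type, so that the deficient arrays lay below the wild-type arrays. Of these 9, 8 were lower in mean than in wild type under both diets, 4 at an unadjusted p under 0.05 on the deficient diet and 1 on the sufficient diet. With all 9 arrays no gene of any marker list passed in any comparison. Without wild-type array 3, 1 endothelial and 1 red cell gene passed between deficient LRAT -/- and wild type, besides the mast cell genes. Over all 22033 genes 267 did so. The part of ventricular myocytes, hepatocytes, red cells, endothelium, fibroblasts or mast cells in the values of Hal, Hnmt and Fah was not tested.

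**Figure D4:**
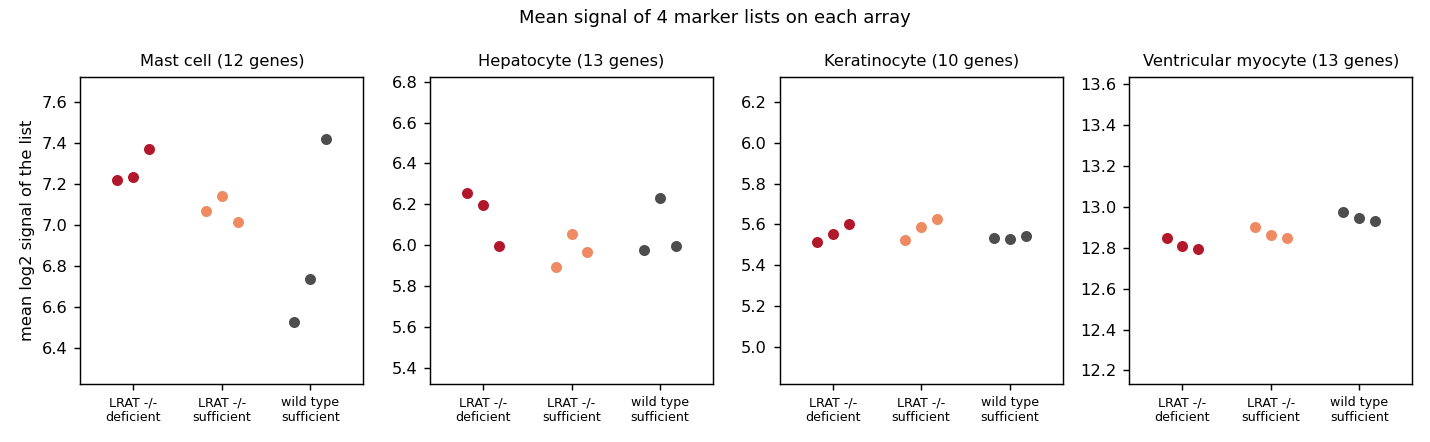
Mean log2 signal (vertical axis) of 4 marker lists on each array (points, arrays 1 to 3 from left to right in each group), each panel on its own range of 1.5 log2 units. Wild-type array 3, at 7.42, stands over wild-type arrays 1 and 2 for mast cell genes, and the keratinocyte means stay between 5.52 and 5.63.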

How the data were processed

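Left ventricle RNA was measured on 9 arrays. Per the submitters' processing notes RMA and R 3.1.2 were used, and build mm8 is named without a role. RMA corrects background, quantile-normalizes and summarises probes, which compresses differences of dim genes. The authors deposited 1 log2 signal per probe set and sample; the log2 scale was read from the values. The deposited comparison table gives a ratio for each pair of groups and p-values, per the file headers, with no account of how they were computed in the sources used here. A further table by the authors holds 9 value columns that match no label; only its gene names were used.

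Of 35556 probe sets, 24174 were given to 1 of 22033 genes, 20424 by accession, 2230 by symbol, 541 by synonym and 979 as written, against RefSeq names on GRCm38. Left out were 6546 controls, 2503 without a name, 2331 that the tables name differently and 2 with several genes. A gene is read from its brightest probe set over 9 arrays.

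Groups were compared with limma 3.58.1 in R 4.3.3 (1 mean per group over 9 arrays, eBayes, two-sided, Benjamini-Hochberg over all genes, threshold 0.05), tested on simulated data first. Tables and figures used Python 3.11.15, pandas 2.3.3, numpy 2.4.6 and matplotlib 3.10.9. The members and gene lists were chosen with earlier results of these data known. Named are the 8 members, Lrat, per pathway list any gene past the threshold and up to 4 by lowest diet p, neighbouring pathway steps, the 2 nearest measured genes per side, the 5 genes with highest r, and up to 4 markers per list. Alb, Trf, Ahsg, Tpsab1, Asns and Fahd1 were named after their values were seen or for their role. Same-numbered arrays of the 2 LRAT -/- groups deviated together (r = 0.212 to 0.262), while those of wild type and LRAT -/- did not (-0.144 to 0.13). No label says that the numbers mark pairs or a batch. The main fit therefore used no pairing, and a replicate block was run as an alternative only. Alternatives were a replicate block, repeated quantile normalization, all probe sets averaged, 2 groups only, signal minimums of 6 and 7, a trended prior, array weights, the deposited ratios and leaving out each array. A protein comparison had been planned and was not run.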

Additional observations from a re-analysis of the deposited data

How the results depend on the processing

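With 3 arrays a group, precision is limited by their number, and 4 of the 8 genes had signals that never left the range of the negative controls. The differences of Hal, Hnmt and Fah from wild type kept their sign under every alternative run. These genes did not overlap with wild type and were chosen by that difference. Leaving out an array could therefore not have changed the sign. Under the replicate block, in which arrays of the same number are paired, Fah differed between the diets by 0.44 ± 0.09 (adjusted p = 0.838), and by 0.44 ± 0.09 (adjusted p = 0.474) with only the 2 LRAT -/- groups, an alternative chosen after seeing the data. Under the block 25 genes in place of 29 passed between deficient LRAT -/- and wild type and 21 in place of 29 between sufficient LRAT -/- and wild type. Same-numbered arrays did not deviate together there, and no other pathway gene passed. No diet alternative called any gene. Diet differences near 0 changed sign: Hnmt was -0.0173 with array weights and -0.0324 by the authors' deposited ratio, and Hpd was 0.0874 by the probe set also named Rpl35a (chosen after seeing the data). Leaving out each array gave diet differences from -0.127 to 0.0188 for Hal, -0.0175 to 0.246 for Hdc, -0.0979 to 0.161 for Hnmt, -0.184 to 0.0824 for Gstz1 and -0.0403 to 0.0429 for Hpd. The count of all genes called between sufficient LRAT -/- and wild type, 29, was 7 with only these 2 groups and 11 to 98 without 1 array, highest without wild-type array 3. Between deficient LRAT -/- and wild type it was 29, and 7 with only 2 groups, 19 at a signal of 7 or more, 68 with array weights and 11 to 267 without 1 array, highest again without wild-type array 3. Of the other pathway genes, Pcbd1 made the count between sufficient LRAT -/- and wild type 1 in place of 0 at a signal of 6 or more (adjusted p = 0.0488), of 7 or more (0.0482), with array weights (0.041) and without LRAT -/- sufficient array 1 (0.0375), so that leaving out arrays gave 0 to 1 for its list and for all lists. Between deficient LRAT -/- and wild type, Asns made the count 1 with array weights (adjusted p = 0.0418). Without wild-type array 3 the count was 2, Mettl9 and Fahd1, each 1 in its list. Leaving out arrays thus gave 0 to 2 over all lists. It gave 0 to 1 in the list of histidine transport and in the list set beside Fah. Leaving out each array gave differences of Ahsg from wild type of -0.839 to 0.113 on the deficient and -0.912 to 0.0395 on the sufficient diet, above 0 without wild-type array 2. The cause of these changes was not tested.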

Other observations

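Among 42 further genes of amino acid breakdown and synthesis outside these pathways, 0 passed in any comparison (limma), and 4 had an unadjusted p under 0.05 between deficient LRAT -/- and wild type, where 8.98% of all genes did, 7 between sufficient LRAT -/- and wild type, where 6.79% did, and 0 between the diets. Asns, asparagine synthetase, was 8.01, 7.92 and 7.82 on the arrays labelled LRAT -/- deficient, 8.01, 7.96 and 7.96 on those labelled LRAT -/- sufficient and 7.57, 7.37 and 7.10 on the wild-type arrays. All 6 arrays labelled LRAT -/- were higher than wild type, by 0.57 ± 0.11 on the deficient diet (adjusted p = 0.153) and 0.62 ± 0.11 on the sufficient diet (adjusted p = 0.11), with a dim wild-type mean of 7.35. Ivd, isovaleryl-CoA dehydrogenase of leucine breakdown, was 10.23, 10.17 and 10.17 on the arrays labelled LRAT -/- deficient, 10.31, 10.53 and 10.45 on those labelled LRAT -/- sufficient and 10.72, 10.37 and 10.27 on the wild-type arrays. Its deficient arrays lay below all others, with a diet difference of -0.24 ± 0.11 (adjusted p = 0.969). Kmo, kynurenine monooxygenase, was dim in all groups and differed by 0.37 ± 0.23 between the diets (adjusted p = 0.969).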
